A study of Mus musculus with 8 samples.

Results

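The acute myeloid leukaemia (AML) library was set against 3 other acute leukaemias of mice with N-Myc overexpression: a B-cell lymphoblastic (B-ALL), a T-cell lymphoblastic (T-ALL) and an undifferentiated leukaemia (AUL). For each gene the AML level was compared with the mean of the other leukaemias on the log2(FPKM + 1) scale, where FPKM is fragments per kilobase of transcript, scaled to the total mapped in the library. Of 16434 listed genes, the 11098 with an FPKM of at least 1 in any of the 4 leukaemias entered the comparison. The AML cells were GFP-positive cells bearing Mac1 and Gr1. B-ALL cells were GFP-positive with B220, T-ALL cells GFP-positive with CD3, and AUL cells GFP-positive without any of these antigens. The 4 normal libraries, used only as a backdrop, came from marrow cells of the same gates without leukaemia: Mac1+Gr1+ myeloid, B220+, CD3+ and lineage-negative cells. All mice were C57BL/6 and 8 to 10 weeks old, and all cells came from bone marrow. What drives N-Myc in these mice, and how many animals stand behind a library, is not given in the sources used here. Each group is 1 library, so no difference has a replicate check and no p-value is given. The smallest one-sided permutation p for 1 library against 3 would be 0.25.

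Granulocytes mature in steps. Promyelocytes make the proteins of the primary granules, such as myeloperoxidase and neutrophil elastase, under the transcription factors PU.1 and C/EBPα. Myelocytes and later cells, which depend on C/EBPε, fill secondary and tertiary granules with lactoferrin, cathelicidin and gelatinase, and mature neutrophils add chemoattractant receptors. N-Myc pairs with MAX at E-box sequences and is best known for raising ribosome production and nucleotide synthesis.

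Library totals recovered from the FPKM steps were 42308253 fragments in AML and 33818615 to 43206624 in the other leukaemias. AML differed from the mean of the others by at least 1 on the log2 scale, that is at least 2-fold in FPKM + 1, upward in 1583 genes (14.3%) and downward in 2080 (18.7%). The counts of every gene list below are to be read beside these shares. AML lay at least 1 above the highest of the others in 955 genes (8.61%) and at least 1 below the lowest in 943 (8.5%). The median difference over all genes was -0.16, and under median-ratio scaling it was -0.05. Among the called genes, 341 had an AML level inside the range of the others. At the edge of the filter, Dok7 and Kank2 peaked at 1.00 FPKM and were in, while 1700007K09Rik and Gm20493 peaked just under it, at 0.999987 and 0.999, and were out. Antigen receptor segments added 132 of 244 lower and 2 higher, and predicted or clone-named genes 212 lower and 242 higher of 1985. These are counted and not named.

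The gate was checked against its own antigens and against lineage markers. Itgam, which encodes the αM chain of Mac1, had 1.63 FPKM in the AML cells, against 17.0 in B-ALL, 3.30 in T-ALL and 3.06 in AUL. Thus the RNA of a gate antigen was lower in AML than in any of the other leukaemias. Gr1 antibodies bind Ly6G and Ly6C. Ly6g had 8.91 FPKM in AML, against 35.9 in B-ALL, 4.53 in T-ALL and 5.92 in AUL, and Ly6c2 had 1081 FPKM in AML, against 127 in B-ALL, 37.1 in T-ALL and 175 in AUL. Of the lists described next, 14 of 18 primary granule genes, 16 of 38 later granule and neutrophil genes and 9 of 22 myeloid transcription factors were higher in AML, and 1, 12 and 5 were lower. Pax5 and Cd3e had 0.35 and 2.28 FPKM in AML. Of markers of other cell types, Siglech (plasmacytoid dendritic cells) was listed at 0 in AML, Epx (eosinophils) had 0.24, Cx3cr1 and Adgre1 (monocytes and macrophages) 0.0871 and 0.111, Klf1 (erythroid cells) 1.17 and Col1a1 (stroma) 0.478 FPKM. Other monocyte and basophil genes were read in AML, with 5 of 21 monocyte and macrophage genes and 3 of 7 basophil and mast cell genes higher there, among them Ly6c2, Lpl at 19.4 FPKM, Cd14 at 15.8 and Mcpt8 at 29.2. Of these, Lpl passed the filter only through its AML level. The highest member of the basophil and mast cell list was Kit, also a receptor of progenitors. A further 6 of its genes were under the filter, such as Fcer1a at 0.0259 FPKM in AML. The AUL library, labelled as lacking CD3, had 57.4 FPKM of Cd3e and 183 of Cd3g, beside 180.1 and 213 in T-ALL and 23.8 of each in B-ALL. These are RNA levels, whereas the gate rests on the CD3 antigen, so they do not decide whether the label holds. Without AUL, 1476 genes were higher in AML and 2129 lower. In bulk samples, fewer cells of a type and less RNA per cell cannot be told apart.

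Primary granule genes had the highest median difference of the lists. Of 18 tested, 14 were at least 2-fold higher in AML and 1 lower, with a median difference of 3.88, and 12 lay at least 1 above the highest other leukaemia. The summed level of the list was 12252 FPKM in AML, against 1941 in B-ALL, 1697 in T-ALL and 1349 in AUL. The promoters of Elane and Mpo, the pair with the highest AML levels in the list, are shown first. Beside them stand the promoters of Ngp and Ltf, both genes of the later granules, of which Ngp was high and Ltf low in AML. Last comes the promoter of Cyp26a1, a retinoic acid hydroxylase read almost exclusively in the AML library. All are from RefSeq on GRCm38.p6, 250 bases before to 50 bases after the start site, on the gene's own strand. Capitals mark GAGGAA (the PU.1 core) in Elane and Mpo, and TTGCNNAA (a relaxed C/EBP motif, N being any base) in Ngp and Ltf. In Cyp26a1 they mark a spelling of the direct repeat bound by retinoic acid receptors (AGTTCA, any 5 bases, AGTTCA, here on the minus strand). Each was searched on both strands.
Elane, chr10:79886062-79886361, plus strand: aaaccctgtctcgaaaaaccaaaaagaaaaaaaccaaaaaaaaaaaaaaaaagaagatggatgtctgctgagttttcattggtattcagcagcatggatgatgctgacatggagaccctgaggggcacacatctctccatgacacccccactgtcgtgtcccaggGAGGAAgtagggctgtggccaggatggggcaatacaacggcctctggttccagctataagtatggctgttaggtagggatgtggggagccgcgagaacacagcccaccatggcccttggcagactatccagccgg
Mpo, chr11:87793534-87793833, plus strand: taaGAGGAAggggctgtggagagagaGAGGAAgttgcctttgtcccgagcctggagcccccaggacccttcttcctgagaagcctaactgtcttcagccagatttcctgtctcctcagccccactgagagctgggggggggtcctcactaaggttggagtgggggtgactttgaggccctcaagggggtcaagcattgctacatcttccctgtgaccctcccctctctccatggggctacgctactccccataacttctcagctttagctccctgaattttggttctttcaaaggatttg
Ngp, chr9:110419558-110419857, plus strand: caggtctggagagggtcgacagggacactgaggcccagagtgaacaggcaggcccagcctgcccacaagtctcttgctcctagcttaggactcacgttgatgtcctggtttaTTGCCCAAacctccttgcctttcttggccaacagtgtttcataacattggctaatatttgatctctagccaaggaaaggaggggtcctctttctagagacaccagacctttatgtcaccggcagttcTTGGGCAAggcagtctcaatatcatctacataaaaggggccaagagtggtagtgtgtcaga
Ltf, chr9:111019042-111019341, plus strand: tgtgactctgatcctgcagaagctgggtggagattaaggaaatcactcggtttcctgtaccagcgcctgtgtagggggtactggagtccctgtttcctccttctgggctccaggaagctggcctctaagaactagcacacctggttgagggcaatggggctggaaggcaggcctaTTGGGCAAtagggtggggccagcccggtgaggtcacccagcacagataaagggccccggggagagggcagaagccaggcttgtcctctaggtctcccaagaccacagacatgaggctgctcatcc
Cyp26a1, chr19:37697558-37697857, plus strand: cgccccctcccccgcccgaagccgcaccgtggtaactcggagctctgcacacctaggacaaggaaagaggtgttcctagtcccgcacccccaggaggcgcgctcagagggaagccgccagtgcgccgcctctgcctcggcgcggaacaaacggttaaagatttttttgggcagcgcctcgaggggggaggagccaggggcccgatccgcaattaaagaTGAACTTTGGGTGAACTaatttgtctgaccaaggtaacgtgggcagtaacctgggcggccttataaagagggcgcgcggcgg

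GAGGAA stood 85 bases before the Elane start site and 247 and 224 bases before that of Mpo, and 28.3% of 32851 promoters hold it. It was found in 8 of the 15 primary granule genes with a listed promoter and in 22 of 33 of the later granule genes. These counts are per gene, over any of its promoters, and so are not the same measure as the share per promoter. TTGCNNAA stood 138 and 11 bases before the start of Ngp and 75 bases before that of Ltf, and 10.8% of promoters hold it. It was found in 4 of the 15 primary and 9 of the 33 later granule genes, again counted per gene. Ltf also holds GAGGAA on the other strand, 157 bases before its start and not overlapping the marked match. The retinoid repeat, 32 bases before the Cyp26a1 start on the minus strand, was found in 8 promoters (0.0244%) in this exact spelling. Other spellings of the repeat were not searched, so this share does not measure how rare such repeats are. A match describes these letters in this window and is not shown to be a site.

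The serine proteases Ctsg and Elane had the highest differences of the list. Elane, neutrophil elastase (chromosome 10, 79886312 to 79888216), had 3481 FPKM in AML, against 96.2 in B-ALL, 23.8 in T-ALL and 33.9 in AUL, a difference of 6.31. Its AML level was 36.2-fold that of B-ALL, the nearest (95% interval 35.1 to 37.4, for counting error only, as with all intervals here). Ctsg, cathepsin G, had 1127 FPKM in AML, against 31.8 in B-ALL, 5.43 in T-ALL and 8.79 in AUL, which is 35.4-fold that of B-ALL (33.3 to 37.7). Prtn3, proteinase 3, had 1061 FPKM in AML, against 98.3 in B-ALL, 24.5 in T-ALL and 22.5 in AUL. AML stood far above all the others in each of these, with B-ALL second. Prtn3 overlaps Plppr3, which had 106 FPKM in AML, so reads of this pair may be shared.

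Mpo, myeloperoxidase (chromosome 11, 87793581 to 87804413), had 2220.1 FPKM in AML, against 104 in B-ALL, 27.6 in T-ALL and 33.6 in AUL, 21.3-fold that of B-ALL (20.7 to 21.9). Ms4a3, a marker of granulocyte-monocyte progenitors, had 474 FPKM in AML, against 14.6 in B-ALL, 2.93 in T-ALL and 4.996 in AUL. Gstm1 had 306 FPKM in AML, against 13.7 in B-ALL, 7.85 in T-ALL and 4.70 in AUL. Lyz2, lysozyme, whose RNA keeps accumulating in mature cells, was the member below the others: 61.8 FPKM in AML, against 385 in B-ALL, 116 in T-ALL and 108 in AUL. Elane and Mpo were also higher in AML than in normal Mac1+Gr1+ cells, which had 445 and 354 FPKM. Among the normal populations the lineage-negative cells held the most, 2797 FPKM for Elane and 4089 for Mpo. Between normal populations, the list's median difference for myeloid against the other cells was 0.27.

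**Figure D1:**
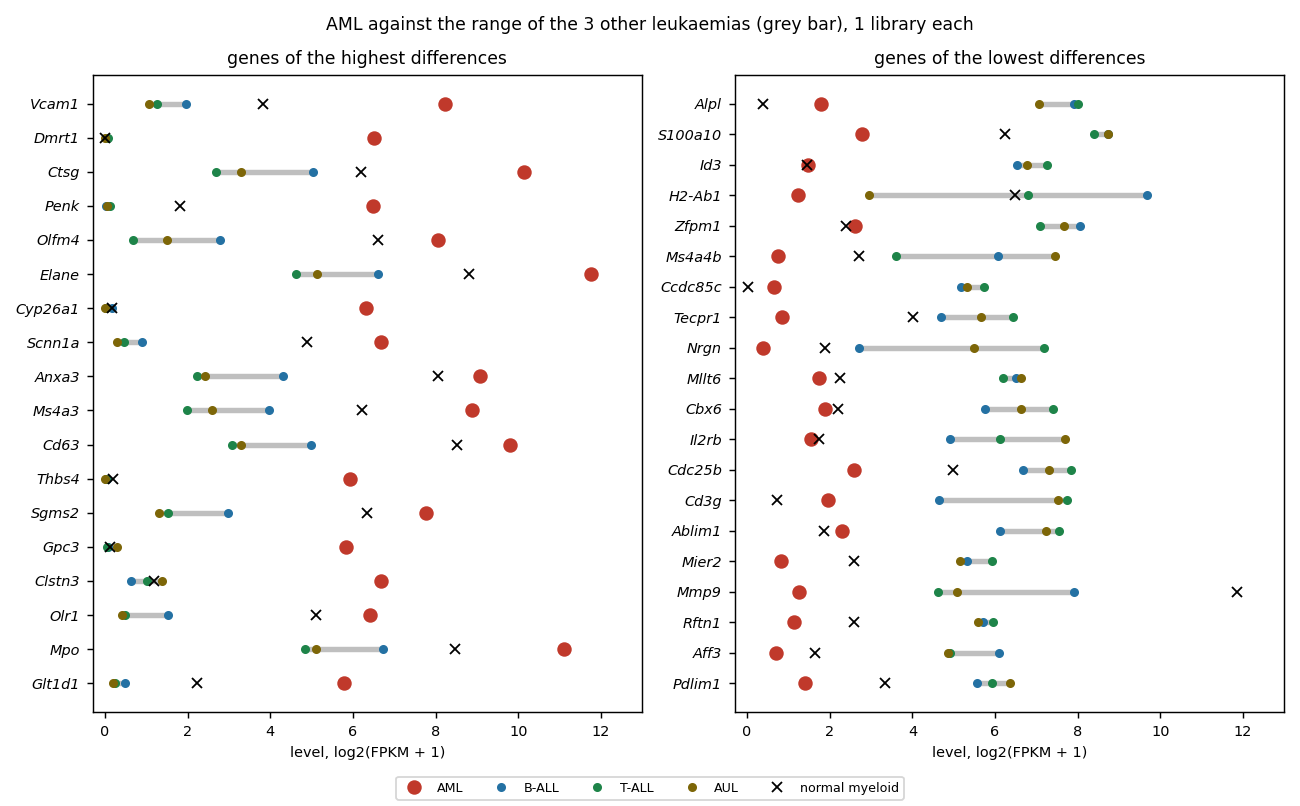
Levels, as log2(FPKM + 1), of 18 of the 20 genes with the highest difference (left) and the 20 with the lowest (right) between AML and the other leukaemias, 1 library each. Large red points are AML, small points B-ALL, T-ALL and AUL with a grey bar over their range, and crosses normal myeloid cells; AML lies outside every bar, and Mmp9 is the lower gene with normal myeloid cells far to the right, at 3723 FPKM.

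Secondary and tertiary granule genes and other neutrophil genes split in AML. Of 38 tested, 16 were higher, 12 lower and 10 in between, with a median difference of 0.81, although between the normal populations all 38 were higher in myeloid cells, where 11.5% of all genes were, with a median of 5.18. The AML median was -0.82 against B-ALL, 1.78 against T-ALL and 1.40 against AUL. In AML 11 genes lay at least 1 above the highest other leukaemia and 6 at least 1 below the lowest. Those higher in AML included Olfm4, olfactomedin 4, with 267.5 FPKM in AML, against 5.87 in B-ALL, 0.607 in T-ALL and 1.84 in AUL. Chil3, a chitinase-like protein, had 3004 FPKM in AML, against 352 in B-ALL, 149 in T-ALL and 103 in AUL. Padi4, the enzyme that citrullinates histones in neutrophils, had 206 FPKM in AML, against 52.4 in B-ALL, 8.42 in T-ALL and 6.79 in AUL. Camp, the cathelicidin, had 1822 FPKM in AML, against 544 in B-ALL, 106 in T-ALL and 132 in AUL, and Ngp 3881 in AML, against 1429 in B-ALL, 295 in T-ALL and 303 in AUL. In these 5, AML exceeded every other leukaemia.

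The 12 lower genes included members of the secondary and tertiary granules and chemoattractant receptors. Mmp9, gelatinase B, had 1.37 FPKM in AML, against 239.9 in B-ALL, 23.7 in T-ALL and 33.0 in AUL, a difference of -4.63. Ltf, lactoferrin, had 66.4 FPKM in AML, against 1730.1 in B-ALL, 298 in T-ALL and 318 in AUL. Retnlg had 9.37 FPKM in AML, against 304 in B-ALL, 21.3 in T-ALL and 67.1 in AUL. Mmp8, neutrophil collagenase, had 1.42 FPKM in AML, against 50.9 in B-ALL, 5.99 in T-ALL and 10.5 in AUL. The chemoattractant receptors Fpr2 and Cxcr2 had 0.258 and 0.287 FPKM in AML, against 22.1 and 16.5 in B-ALL, 2.94 and 1.12 in T-ALL and 3.93 and 2.25 in AUL. AML was below all 3 other leukaemias in these 6 genes. The calprotectin subunits lay within the range of the others: S100a8 had 1788 FPKM in AML, against 3581 in B-ALL, 392.4 in T-ALL and 639.95 in AUL, and S100a9 had 2584, against 3785 in B-ALL, 473 in T-ALL and 736 in AUL.

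The level of each neutrophil gene was next written as a share of its level in normal Mac1+Gr1+ cells, for the 36 genes with at least 10 FPKM there. In AML the median share was 3.29%, with quartiles of 0.391% and 12.8%, and shares ran down to 0 for Wfdc17 and up to 278% for Olfm4. The quartiles of the other leukaemias lay closer together. The median share was 6.23% in B-ALL (quartiles 5.35% and 8.24%, range 4.07% to 18.7%), 0.839% in T-ALL (0.527% and 1.25%, range 0 to 2.74%) and 1.19% in AUL (0.894% and 1.40%, range 0 to 5.66%). Chil3, Padi4 and Camp were at 49.4%, 37.4% and 17.5% in AML, whereas Ltf, Mmp9 and Fpr1 were at 0.249%, 0.0368% and 0.0144%. In B-ALL those 6 genes spanned only 5.09% to 9.52%. B-ALL, with the highest median share, was also the highest of the leukaemias for Mmp9, Ltf and Retnlg, and the part of normal neutrophil RNA in the levels of the other leukaemias was not tested. The AML shares use only the AML and normal myeloid libraries.

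**Figure D2:**
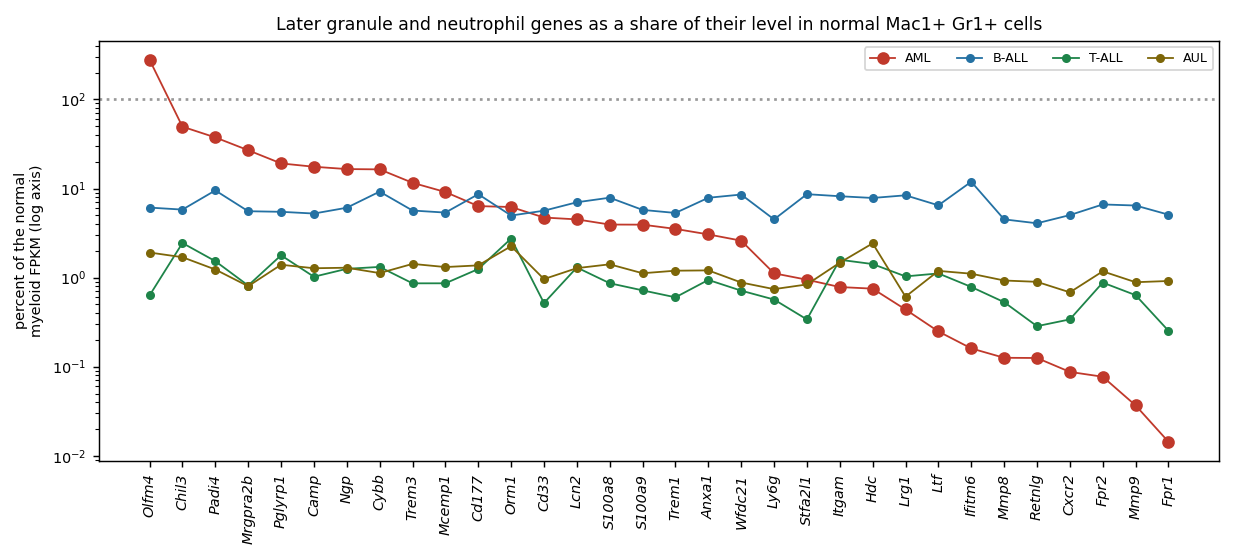
FPKM in each leukaemia as a percent of the FPKM in normal Mac1+Gr1+ cells (log axis) for the 32 later granule and neutrophil genes above 0 in all 4 leukaemias, ordered by the AML share; lines only link the points of a library. AML runs from 278% for Olfm4 to 0.0144% for Fpr1, while B-ALL, T-ALL and AUL vary less; the dotted line marks 100%.

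Transcription factors of the myeloid line were higher in part. Of 22 tested, 9 were higher in AML and 5 lower, with a median of 0.83. Cebpa, which encodes C/EBPα, had 90.7 FPKM in AML, against 2.82 in B-ALL, 2.00 in T-ALL and 1.87 in AUL, a difference of 4.84. Cebpe had 338 FPKM in AML, against 25.5 in B-ALL, 7.61 in T-ALL and 8.03 in AUL, and Cebpd 77.4, against 5.85 in B-ALL, 1.53 in T-ALL and 1.26 in AUL. Spi1, which encodes PU.1, had 357 FPKM in AML, against 169.8 in B-ALL, 17.9 in T-ALL and 13.5 in AUL. These 4 were all highest in AML. Cebpe was at nearly the same level in AML as in normal myeloid cells, at 346 FPKM, whereas Cebpa had 32.2 FPKM in those. Gfi1, a repressor needed for neutrophil formation, had 111 FPKM in AML, below the 236 of T-ALL and above the 32.6 of B-ALL and 32.5 of AUL.

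The lower factors included regulators of the monocyte line. Irf8, which directs monocyte and dendritic fates, had 3.47 FPKM in AML, against 137 in B-ALL, 27.0 in T-ALL and 63.0 in AUL. Irf5 had 1.19 FPKM in AML, against 77.9 in B-ALL, 4.58 in T-ALL and 1.93 in AUL, a difference of -2.31 that was -0.88 without B-ALL, and it overlaps Tnpo3. Rara, the retinoic acid receptor α, had 0.954 FPKM in AML, against 17.5 in B-ALL, 24.3 in T-ALL and 9.17 in AUL. Bcl6, a repressor, had 0.336 FPKM in AML, against 3.38 in B-ALL, 2.56 in T-ALL and 5.61 in AUL. Of these, Irf8, Rara and Bcl6 were below every other leukaemia by at least 1 on the log2 scale. Myb, a progenitor regulator, was on the other side, with 189 FPKM in AML, against 76.6 in B-ALL, 60.3 in T-ALL and 60.02 in AUL.

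Receptors for myeloid growth factors were mixed, with 10 of 25 higher, 5 lower and a median of -0.22. Kit, the stem cell factor receptor of progenitors, had 53.4 FPKM in AML, against 2.92 in B-ALL, 0.849 in T-ALL and 0.549 in AUL. Csf2rb, the β chain shared by the GM-CSF and IL-3 receptors, had 31.3 FPKM in AML, against 10.4 in B-ALL, 1.15 in T-ALL and 1.37 in AUL. Csf3r, the G-CSF receptor, had 68.3 FPKM in AML, against 39.8 in B-ALL, 4.88 in T-ALL and 7.00 in AUL, and 947 in normal myeloid cells. Il3ra, the IL-3 receptor α chain, had 1.22 FPKM in AML, against 11.6 in B-ALL, 21.8 in T-ALL and 6.62 in AUL, and Il6st, the gp130 chain, 2.01 in AML, against 8.92 in B-ALL, 71.2 in T-ALL and 43.8 in AUL. Csf1r, the M-CSF receptor of monocytes, had 0.276 FPKM in AML, against 4.72 in B-ALL, 1.05 in T-ALL and 0.849 in AUL.

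Monocyte and macrophage genes were lower in 8 and higher in 5 of 21, with a median of -0.56. Ctss, cathepsin S of antigen-presenting cells, had 1.05 FPKM in AML, against 79.3 in B-ALL, 2.73 in T-ALL and 9.99 in AUL. Lgals3, galectin 3, had 4.77 FPKM in AML, against 70.3 in B-ALL, 9.11 in T-ALL and 32.1 in AUL. Ly6c2 and Lpl were the highest members relative to the others, Lpl (lipoprotein lipase) at 19.4 FPKM in AML, against 0.555 in B-ALL, 0.227 in T-ALL and 0.391 in AUL. Lpl passed the filter only through its AML level. The oxidase of the phagosome was higher in 4 of 7 genes and lower in 1, with a median of 1.24. That median was 0.63 against B-ALL, 1.82 against T-ALL and 1.25 against AUL. At least 1 above the highest other leukaemia lay 1 gene. The catalytic chain of the oxidase, Cybb, had 241 FPKM in AML, against 136 in B-ALL, 19.4 in T-ALL and 16.5 in AUL. Its subunit Ncf4 had 32.7 FPKM in AML, against 158 in B-ALL, 66.7 in T-ALL and 46.3 in AUL, a difference of -1.25 that was -0.75 without B-ALL. Pattern recognition and Fc receptors were higher in 9 and lower in 2 of 26, with a median of 0.30, led by Clec5a with 79.0 FPKM in AML, against 9.81 in B-ALL, 2.10 in T-ALL and 1.5004 in AUL. The median of these receptors was -0.68 against B-ALL, 1.25 against T-ALL and 0.85 against AUL. At least 1 above the highest other leukaemia lay 3 of the 26.

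Stem and progenitor genes included 14 of 30 listed that were under the filter. Of the 16 tested, 6 were higher and 4 lower, beside 14.3% and 18.7% of all genes. Lmo2, a partner of SCL in progenitors, had 155 FPKM in AML, against 16.2 in B-ALL, 3.58 in T-ALL and 2.18 in AUL. Erg had 48.8 FPKM in AML, against 3.49 in B-ALL, 0.634 in T-ALL and 0.397 in AUL, and Lyl1 162, against 54.7 in B-ALL, 6.25 in T-ALL and 2.22 in AUL, though Lyl1 overlaps Nfix. Hlf, a stem cell regulator, had 8.02 FPKM in AML, against 0.145 in B-ALL, 0.0221 in T-ALL and 0.0282 in AUL. Hlf, counted as higher, passed the filter only through its AML level. Other stem cell genes were near 0 in AML. Cd34 had 0.183 FPKM in AML, against 1.32 in B-ALL, 0.348 in T-ALL and 0.148 in AUL, and Gata2 0.0488, against 2.59 in B-ALL, 0.0836 in T-ALL and 0.473 in AUL. HOX genes and cofactors were higher in 0 and lower in 3 of 7, with 15 under the filter. Meis3 had 0.543 FPKM in AML, against 5.07 in B-ALL, 21.9 in T-ALL and 14.2 in AUL, and Hoxb4 0.111, against 2.87 in B-ALL, 3.09 in T-ALL and 2.22 in AUL.

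Of 27 pan-T genes, 25 were lower in AML, 1 higher (Ubash3a) and 16 at least 1 below the lowest other leukaemia, with a median of -3.50, and -3.29 without AUL. Cd3g had 2.89 FPKM in AML, against 23.8 in B-ALL, 213 in T-ALL and 183 in AUL, which is 8.24-fold lower than B-ALL (6.99 to 9.75). Lck, the proximal T-cell receptor kinase, had 14.4 FPKM in AML, against 95.6 in B-ALL, 596 in T-ALL and 626 in AUL, and Tcf7, the T-lineage factor TCF1, 15.9 in AML, against 85.0 in B-ALL, 882 in T-ALL and 523 in AUL. Il2rb, the IL-2 receptor β chain, had 1.92 FPKM in AML, against 29.2 in B-ALL, 68.9 in T-ALL and 207 in AUL. B-ALL was nearest to AML in each of these 4. NK and cytotoxic genes were lower in 11 and higher in 2 of 20: Gzma, granzyme A, had 7.70 FPKM in AML, against 44.1 in B-ALL, 732 in T-ALL and 159 in AUL. Notch targets were lower in 2 and higher in 1 of 9, near the 18.7% and 14.3% of all genes. Among them Dtx4 had 37.6 FPKM in AML, against 0.91 in B-ALL, 1.65 in T-ALL and 0.303 in AUL.

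Pan-B genes were lower in 15 of 18 and higher in 1, with a median of -2.01, and much of this rests on B-ALL. Pax5 had 0.35 FPKM in AML, against 482 in B-ALL, 1.07 in T-ALL and 0.53 in AUL, a difference of -3.09 that was -0.40 without B-ALL. Without B-ALL the median was -0.38. An exception was Btk, the kinase shared by B and myeloid cells, with 72.0 FPKM in AML, against 95.7 in B-ALL, 2.80 in T-ALL and 0.992 in AUL. Early B genes were lower in 7 and higher in 2 of 12, with a median of -1.28, and -0.19 without B-ALL. Ikzf3, the lymphoid factor Aiolos, had 4.84 FPKM in AML, against 132 in B-ALL, 85.7 in T-ALL and 159.7 in AUL, so its direction does not hang on B-ALL.

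Of 19 genes in a mixed list of mature B cells and MHC class II, 15 were lower and 0 higher, with a median of -1.82. H2-Ab1, a class II β chain, had 1.35 FPKM in AML, against 812 in B-ALL, 109 in T-ALL and 6.74 in AUL, which is 4.98-fold lower than AUL (3.58 to 6.97). Cd74, the invariant chain, had 1.70 FPKM in AML, against 716 in B-ALL, 6.14 in T-ALL and 3.86 in AUL, and Ciita, the class II activator, 0.00450, against 17.6 in B-ALL, 0.145 in T-ALL and 0.0394 in AUL. For MHC class I and its processing, 8 of 15 were lower, 7 in between and 0 higher, with a median of -1.05. That median was -0.94 under median-ratio scaling, -0.95 with the median of the others and -0.91 without B-ALL. H2-Q7 had 3.65 FPKM in AML, against 38.3 in B-ALL, 144 in T-ALL and 86.6 in AUL, and H2-T23 7.17, against 74.1 in B-ALL, 41.6 in T-ALL and 39.8 in AUL. H2-K1 and B2m were closer. H2-K1 had 303 FPKM in AML, against 692 in B-ALL, 410.2 in T-ALL and 690.5 in AUL. B2m had 533 FPKM in AML, against 774 in B-ALL, 729 in T-ALL and 736 in AUL.

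Interferon-stimulated genes were lower in 17 of 28 and higher in 1, with a median of -1.14, and 8 lay at least 1 below the lowest other leukaemia. Oas3 had 0.17 FPKM in AML, against 9.90 in B-ALL, 9.36 in T-ALL and 7.25 in AUL. Irf1 had 10.99 FPKM in AML, against 35.4 in B-ALL, 47.0 in T-ALL and 63.2 in AUL. Ifitm3 had 1.53 FPKM in AML, against 80.9 in B-ALL, 9.69 in T-ALL and 9.03 in AUL, and 979 in normal myeloid cells, so the AML level was low both among the leukaemias and beside its normal gate. The higher member, Ifih1, encodes the RNA sensor MDA5 and had 5.03 FPKM in AML, against 2.47 in B-ALL, 0.803 in T-ALL and 0.966 in AUL.

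**Figure D3:**
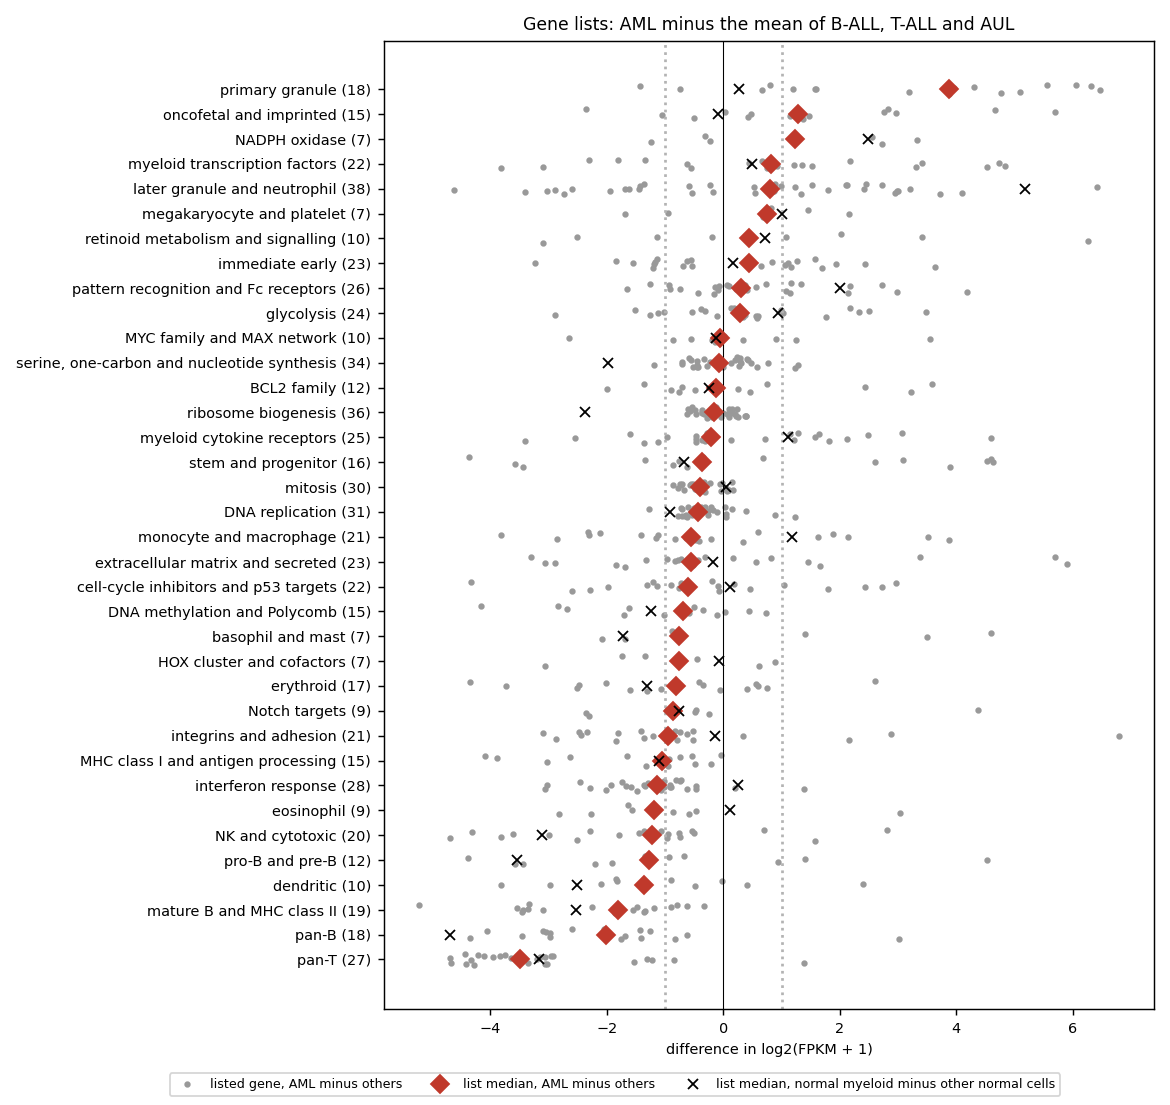
Differences in log2(FPKM + 1), AML minus the mean of the other leukaemias, for the tested genes of each list (grey points; number of genes in parentheses) with the list median (red diamond) and the median of normal myeloid minus the other normal populations (cross). Primary granule genes have the highest median, 3.88, and pan-T genes the lowest, -3.50; dotted lines mark 1 and -1.

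A further set of genes was read at a substantial level in no library but AML. It comprised 30 genes with at least 10 FPKM in AML and under 1 in each of the other 7 libraries, normal cells included. Dmrt1, a sex determination factor of the testis, had 90.8 FPKM in AML, against 0.029 in B-ALL, 0.0575 in T-ALL and 0 in AUL. Its AML level rests on 6189 fragments and that of T-ALL on 4. Thbs4, a thrombospondin, had 59.9 FPKM in AML, against 0.0257 in B-ALL, 0.0128 in T-ALL and 0 in AUL, and Cftr, the chloride channel of epithelia, 31.1, against 0.0103 in B-ALL, 0.0154 in T-ALL and 0 in AUL. The 30 also held Peg10, an imprinted gene of the placenta, F7, coagulation factor VII, and Slc13a5 and Clec3a, which were listed at 0 in the other 7 libraries.

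Oncofetal and imprinted genes as a list were higher in 9 and lower in 2 of 15, with a median of 1.29. The median was 0.45 with no filter on low values, which some members, such as Peg10, passed only through their AML level, and 0.97 without B-ALL. Gpc3, the embryonic proteoglycan glypican 3, had 55.6 FPKM in AML, against 0.0456 in B-ALL, 0.0339 in T-ALL and 0.217 in AUL. Igf2bp3 had 50.6 FPKM in AML, against 22.03 in B-ALL, 10.3 in T-ALL and 0.675 in AUL, and Lin28a, which blocks let-7 maturation, 24.5, against 7.22 in B-ALL, 1.79 in T-ALL and 1.02 in AUL. Lin28a was higher still in normal myeloid cells, at 105 FPKM, but Igf2bp3 had 0.121 there. Hmga1, a chromatin protein, had 1069.7 FPKM in AML, against 624 in B-ALL, 416 in T-ALL and 276 in AUL. The lower members were Afp and Dlk1. Afp, α-fetoprotein, had 0.0512 FPKM in AML, against 0.0252 in B-ALL, 1.85 in T-ALL and 52.9 in AUL, a difference of -2.36 that was -0.70 without AUL. Dlk1, an imprinted membrane protein, had 0.0352 FPKM in AML, against 0.0696 in B-ALL, 7.18 in T-ALL and 0.118 in AUL.

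Of 10 genes of retinoic acid metabolism and signalling, 4 were higher and 3 lower, beside 14.3% and 18.7% of all genes. Cyp26a1, Cyp26c1 and Cyp26b1 passed the filter only through their AML level, and 6 listed genes were under it. The higher genes were degrading or reducing enzymes. Cyp26a1 (chromosome 19, 37697808 to 37701528) had 78.9 FPKM in AML, against 0.118 in B-ALL, 0.0131 in T-ALL and 0 in AUL, and Cyp26c1 9.86, against 0.0267 in B-ALL, 0.0397 in T-ALL and 0 in AUL. The third enzyme, Cyp26b1, had 1.11 FPKM in AML and was listed at 0 in the other leukaemias. Dhrs3, which returns retinal to retinol, had 20.5 FPKM in AML, against 3.53 in B-ALL, 1.76 in T-ALL and 11.03 in AUL. The lower genes were receptors: Rara, given above, Rarg and Rxra. Rarg had 0.457 FPKM in AML, against 2.48 in B-ALL, 7.58 in T-ALL and 18.2 in AUL, and Rxra 1.27, against 2.63 in B-ALL, 4.66 in T-ALL and 5.22 in AUL, a difference of -1.15 that was -0.99 without AUL. Rxrg was listed at 0 in all 4 leukaemias. The other tested genes whose RefSeq promoter held the same repeat as Cyp26a1 did not share a direction, with Tnfsf13b at 9.57 FPKM in AML, against 1.15 in B-ALL, 0.366 in T-ALL and 0.511 in AUL, and Blvrb at 2.41, against 71.9 in B-ALL, 8.77 in T-ALL and 6.56 in AUL.

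Adhesion genes held the highest difference of all named genes. Vcam1, the adhesion molecule VCAM-1 (chromosome 3, 116109949 to 116129688), had 299.9 FPKM in AML, against 2.90 in B-ALL, 1.40 in T-ALL and 1.10 in AUL, a difference of 6.80. This was 103-fold that of B-ALL (92.8 to 115) and far above the 13.04 FPKM of normal myeloid cells. Of 21 adhesion genes 3 were higher, Vcam1, Itga5 and Itgb3, and 10 were lower. Itgal, the αL chain of LFA-1, had 7.71 FPKM in AML, against 26.7 in B-ALL, 148 in T-ALL and 100.45 in AUL, and Itgb2, the β2 chain it shares with Mac1, 27.7, against 109.97 in B-ALL, 174 in T-ALL and 196 in AUL. Both chains of Mac1 were lower in AML than in every other leukaemia. Itga4, the α4 chain of the VCAM-1 receptor, had 41.4 FPKM in AML, against 103 in B-ALL, 105 in T-ALL and 129 in AUL. Matrix and secreted genes were higher in 5 and lower in 6 of 23, beside 14.3% and 18.7% of all genes. Among them were Gpc1 with 74.9 FPKM in AML, against 11.2 in B-ALL, 3.83 in T-ALL and 5.66 in AUL, and Sdc1, syndecan 1, with 0.971, against 7.85 in B-ALL, 23.4 in T-ALL and 32.5 in AUL. The highest difference of this list was that of Thbs4, given above, which passed the filter only through its AML level.

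Other genes among the 20 highest differences were Penk (preproenkephalin), Scnn1a (an epithelial sodium channel subunit), Anxa3, Cd63, Sgms2, Clstn3, Olr1 and Glt1d1. Penk had 88.6 FPKM in AML, against 0.0215 in B-ALL, 0.0853 in T-ALL and 0.0273 in AUL. Anxa3, annexin A3 of neutrophil granules, had 536 FPKM in AML, against 18.7 in B-ALL, 3.70 in T-ALL and 4.31 in AUL. Cd63, a membrane protein of primary granules and lysosomes, had 887 FPKM in AML, against 30.5 in B-ALL, 7.46 in T-ALL and 8.79 in AUL. That value is uncertain, as the pseudogene Cd63-ps followed it at 84.7 FPKM in AML and may draw the same reads. Glt1d1 overlaps Slc15a4.

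On the low side, Alpl, alkaline phosphatase, had 2.45 FPKM in AML, against 240.1 in B-ALL, 257 in T-ALL and 133 in AUL, a difference of -5.88 and 54.3-fold lower than AUL (43.7 to 68.5). S100a10, the partner of annexin A2, had 5.84 FPKM in AML, against 426 in B-ALL, 337 in T-ALL and 422 in AUL. Id3, an inhibitor of E proteins, had 1.79 FPKM in AML, against 92.0 in B-ALL, 151 in T-ALL and 107 in AUL. In these genes the other leukaemias lay close together relative to their gap to AML. Zfpm1, the GATA cofactor FOG1, had 5.07 FPKM in AML, against 265 in B-ALL, 136 in T-ALL and 203 in AUL, and Cdc25b, a mitotic phosphatase, 4.96, against 101 in B-ALL, 226 in T-ALL and 156 in AUL. Beside H2-Ab1, Il2rb, Cd3g and Mmp9, the rest of the 20 were Ms4a4b, Ccdc85c, Tecpr1, Nrgn, Mllt6, Cbx6, Ablim1, Mier2, Rftn1, Aff3 and Pdlim1, with AML levels of 0.299 FPKM (Nrgn) to 3.92 FPKM (Ablim1). Normal myeloid cells had 0.314 FPKM of Alpl, 74.3 of S100a10 and 1.75 of Id3.

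Mycn, the gene overexpressed in these mice, was high in all leukaemias. It had 1858 FPKM in AML, against 1587 in B-ALL, 843 in T-ALL and 719 in AUL, a difference of 0.91, and 0.518 to 5.24 FPKM in the normal populations. Myc was low, at 0.251 FPKM in AML, against 2.35 in B-ALL, 0.874 in T-ALL and 0.907 in AUL, where normal myeloid cells had 6.45 and normal B, T and lineage-negative cells 47.4, 98.2 and 89.95 FPKM. The introduced and the mouse's own Mycn cannot be told apart in these values. In the MAX network, 2 of 10 genes were higher and 1 lower, beside 14.3% and 18.7% of all genes. Among the higher genes, Mlxipl passed the filter only through its AML level. Mlxipl, the glucose-responsive factor ChREBP, had 10.97 FPKM in AML, against 0.0336 in B-ALL, 0.0222 in T-ALL and 0.0142 in AUL, and Mxd3 had 2.25, against 19.2 in B-ALL, 20.9 in T-ALL and 18.3 in AUL, though Mxd3 overlaps Prelid1.

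Growth genes were at near the same level in all 4 leukaemias. Of 36 ribosome biogenesis genes, 0 were higher and 0 lower, with differences from -0.62 to 0.39 and a median of -0.17 beside -0.16 over all genes. Between normal populations 35 of these 36 were lower in myeloid cells, where 37.2% of all genes were, with a median of -2.37. Serine, one-carbon and nucleotide synthesis had 2 higher and 1 lower of 34, with a median of -0.07 beside -1.99 between normal cells. The lower gene was Cad, of pyrimidine synthesis, with 93.3 FPKM in AML, against 213 in B-ALL, 233 in T-ALL and 203 in AUL. Mitosis genes had 0 higher and 0 lower of 30, and DNA replication 1 each of 31, with medians of -0.40 and -0.43. Their summed levels in AML, 1943 and 3185 FPKM, were the lowest of the 4 leukaemias, where the others had 2388 to 2931 and 3915 to 4517.

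Glycolysis genes were higher in 6 and lower in 5 of 24, beside 14.3% and 18.7% of all genes. Gpi1 had 2099 FPKM in AML, against 454 in B-ALL, 758 in T-ALL and 684 in AUL, and Hk3, the hexokinase of myeloid cells, 142, against 31.1 in B-ALL, 7.24 in T-ALL and 6.93 in AUL. Pfkm, the muscle-type phosphofructokinase, had 1.73 FPKM in AML, against 17.7 in B-ALL, 20.4 in T-ALL and 20.1 in AUL. Gapdh had 319 FPKM in AML, against 31.1 in B-ALL, 207 in T-ALL and 38.0 in AUL, but its reads can fall on many pseudogenes and the values are uncertain.

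Cell-cycle inhibitors and p53 targets were higher in 5 and lower in 7 of 22, beside 14.3% and 18.7% of all genes. Cdkn2a, which encodes p16 and p19ARF, had 0.703 FPKM in AML, against 219.9 in B-ALL, 12.98 in T-ALL and 12.1 in AUL. Cdkn2c, p18, had 6.95 FPKM in AML, against 28.4 in B-ALL, 44.4 in T-ALL and 43.6 in AUL, and Cdkn1b, p27, 9.21, against 37.3 in B-ALL, 18.2 in T-ALL and 14.2 in AUL. These 3 inhibitors were lowest in AML, whereas Cdkn1c, p57, had 10.9 FPKM in AML, against 0.916 in B-ALL, 0.331 in T-ALL and 0.396 in AUL. Cdkn1c, counted as higher, passed the filter only through its AML level. In the BCL2 family, 3 of 12 were higher and 2 lower, beside 14.3% and 18.7% of all genes. Among the higher genes, Bcl2a1a passed the filter only through its AML level. Bcl2l2 had 16.9 FPKM in AML, against 0.776 in B-ALL, 2.04 in T-ALL and 0.337 in AUL, and Bcl2 had 0.099, against 3.15 in B-ALL, 2.51 in T-ALL and 0.554 in AUL. Bcl2a1a, one of a set of near-identical copies, had 12.6 FPKM in AML, against 0.114 in B-ALL, 0.113 in T-ALL and 0.181 in AUL, while its copy Bcl2a1d had 0.685, against 1.03 in B-ALL, 14.9 in T-ALL and 8.497 in AUL, so the split between these copies is uncertain.

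Polycomb and DNA methylation genes were higher in 0 and lower in 6 of 15, with a median of -0.69. Cbx2, a reader subunit of Polycomb complex 1, had 0.228 FPKM in AML, against 23.8 in B-ALL, 20.5 in T-ALL and 18.6 in AUL. Pcgf2 had 0.36 FPKM in AML, against 4.24 in B-ALL, 12.6 in T-ALL and 12.02 in AUL. Phf19, a partner of Polycomb complex 2, had 4.60 FPKM in AML, against 32.7 in B-ALL, 57.7 in T-ALL and 22.9 in AUL, and Ezh2, its methyltransferase, 72.3, against 178 in B-ALL, 129 in T-ALL and 143 in AUL. The Ezh2 difference of -1.03 was -0.91 under median-ratio scaling, -0.97 with the median of the others and -0.90 without B-ALL. All 4 were lowest in AML, and Cbx2 and Pcgf2 were at 0.469 and 0.423 FPKM in normal myeloid cells.

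The remaining lists describe other cell types and states. Immediate early genes, which respond quickly to stress, were higher in 9 and lower in 7 of 23, beside 14.3% and 18.7% of all genes. Among them Jun had 143 FPKM in AML, against 15.0 in B-ALL, 7.54 in T-ALL and 10.5 in AUL, and Egr3 0.134, against 3.49 in B-ALL, 11.4 in T-ALL and 21.1 in AUL. Erythroid genes were lower in 8 and higher in 1 of 17, with Hbb-bs at 0.617 FPKM in AML, against 23.1 in B-ALL, 16.2 in T-ALL and 86.1 in AUL. Eosinophil genes were lower in 5 and higher in 1 of 9, and the median of -1.20 was -0.16 without B-ALL. Dendritic genes were lower in 5 and higher in 1 of 10, with a median of -1.36, and -0.52 without B-ALL. Basophil and mast cell genes were higher in 3, Kit among them, and lower in 2 of 7, with Mcpt8 at 29.2 FPKM in AML, against 7.34 in B-ALL, 0.352 in T-ALL and 0.726 in AUL. Megakaryocyte genes were higher in 2 and lower in 1 of 7 and stroma genes higher in 0 and lower in 1 of 4, beside 14.3% and 18.7% of all genes. Of 3 germ cell genes 1 was higher, Dmrt1, which passed the filter only through its AML level.

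The AML difference was set beside the difference of normal myeloid cells from the other normal populations, with no library shared. Normal myeloid cells were at least 1 above the mean of the others in 1271 genes (11.5%) and at least 1 below in 4124 (37.2%), with a median of -0.59. Of the genes higher in AML, 506 were also higher in normal myeloid cells, which is 32.0% of the AML list and 39.8% of the normal list. Of those lower in AML, 1106 were also lower in normal myeloid cells, which is 53.2% and 26.8%. The opposite pairs numbered 168 each way. Across the 11098 genes the Pearson correlation of the differences was 0.37, a description over genes that share the 8 libraries. Olfm4, Cebpe and Ngp were high in both, Lck and Cd3g low in both. Elane, Mpo and Kit were high among the leukaemias with normal differences of less than 1.

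**Figure D4:**
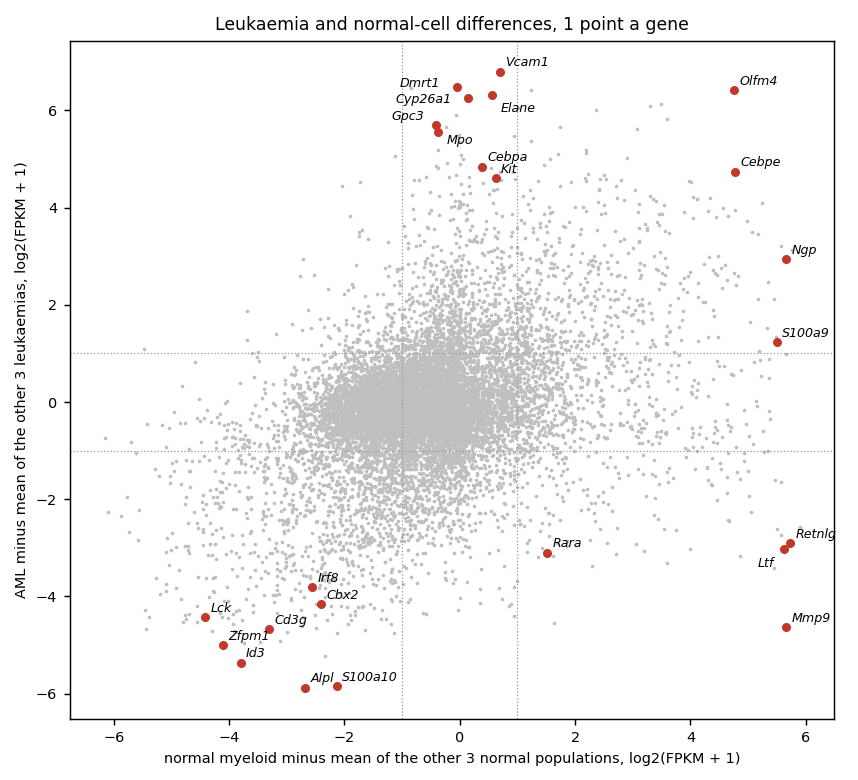
Each point is 1 of 11098 genes: on the x axis normal myeloid cells minus the mean of the other normal populations, on the y axis AML minus the mean of the other leukaemias, both in log2(FPKM + 1), with dotted lines at 1 and -1. Mmp9, Ltf and Retnlg sit at the lower right, far higher in normal myeloid cells and lower in AML, and Olfm4, Cebpe and Ngp at the upper right.

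By chromosome, 8867 genes other than receptor segments and predicted genes had a median difference of -0.15. For 3 chromosomes the median stood apart. Chromosome 15, with 362 genes, had a median of -0.49, and AML was lower than each of the others there, by -0.30 for B-ALL, -0.28 for T-ALL and -0.72 for AUL. Chromosome 16, with 298 genes, had a median of 0.25, from -0.01 against B-ALL, 0.43 against T-ALL and 0.49 against AUL. Chromosome 19, with 336 genes, had a median of 0.11, from 0.44 against B-ALL, -0.09 against T-ALL and 0.04 against AUL. Medians of the other chromosomes lay between -0.25 and -0.08. Between normal populations the medians of chromosomes 15, 16 and 19 were -0.77, -0.93 and -0.53, beside -0.62 over all. No cause of these shifts was tested.

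**Figure D5:**
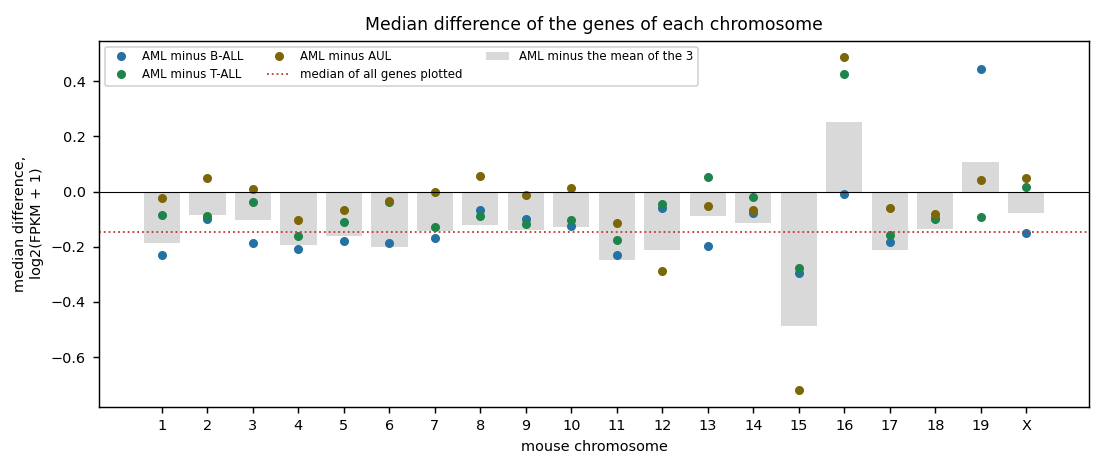
Median difference in log2(FPKM + 1) per chromosome between AML and the mean of the other leukaemias, and between AML and each of them, over 8867 genes. Chromosome 15 is lowest, at -0.49, with all 3 single comparisons below 0, and chromosome 16 highest, at 0.25.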

How the data were processed

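Poly(A) RNA of 8 libraries, 1 per group, was sequenced by the study. Per the labels' protocols, the library was random-primed, read as pairs on a HiSeq instrument, and expression was given as FPKM by the authors. Per the submitters' processing notes, STAR, HTSeq and edgeR were among the tools and mm10 was the build; versions, strand and the settings are not given in the sources used here. The rule by which genes entered the deposited FPKM table, whose name refers to differential genes, is not stated, so shares refer to listed genes only. The rest was computed with Python 3.11.15, pandas 2.3.3 and numpy 2.4.6: log2(FPKM + 1), a filter of FPKM of at least 1 in any leukaemia, and AML minus the mean of B-ALL, T-ALL and AUL, called at 1 or -1. The leukaemias are not replicates of a group, so nothing was tested.

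Total fragments were recovered from steps of FPKM multiplied by GENCODE vM21 transcript length, available for 16380 genes. Within 0.02 of a fragment, 95.9% to 96.5% of values of single-transcript genes were whole. Fold intervals are 95% intervals for a ratio of fragment counts, cover counting error only, and are approximate for genes with several transcripts. Promoters came from RefSeq and were matched by symbol. Coordinates are those of the deposited table.

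The 38 gene lists, the members and the alternatives were chosen with earlier results of these data known. Named genes were the 20 highest and 20 lowest differences with at least 10 FPKM in the highest leukaemia and AML outside the range of the others, without receptor segments and predicted genes; some are not reported here. From each list up to 6 members with at least 5 FPKM and the largest differences could be named, with any further member named only for its value. Alternatives changed the pseudocount, filter, scaling, summary of the other leukaemias, genes counted and libraries, and the counting was tested on simulated data.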

Additional observations from a re-analysis of the deposited data

Results flagged for a closer look

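In 13 genes of the lists AML lay at least 1 below every other leukaemia on the log2(FPKM + 1) scale while normal myeloid cells lay at least 1 above every other normal population. These opposite directions come from single libraries, and the difference between them was not tested. The AML differences were -4.63 for Mmp9, -3.41 for Ifitm6, -3.02 for Ltf, -2.90 for Retnlg, -2.73 for Mmp8 and -2.61 for Fpr2 among neutrophil genes. They were -3.06 for Oas3, -3.03 for Ifitm3 and -2.29 for Oas1a among interferon-stimulated genes. They were -3.10 for Rara, -1.81 for Bcl6, -2.45 for Itgb2 and -2.89 for Timp2, an inhibitor of metalloproteinases. Over all 11098 genes, 43 had this pattern and 16 the reverse.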

How the results depend on the processing

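Counts of genes higher and lower were 1239 to 1988 and 1736 to 3019 over the alternatives. Median-ratio scaling moved the median difference to -0.05. With a pseudocount of 0.1, 1590 genes lay at least 1 below the lowest other leukaemia, against 943, and 2502 were called in the same direction in AML and normal myeloid cells, against 1612. The number of lists with a median of at least 1 in size, 12, was 19 with FPKM of at least 5 and 7 with no filter. It was 6 to 14 when 1 of the other leukaemias was left out, the lowest without B-ALL. Without B-ALL the medians of 7 lists were under 1 in size, among them interferon response at -0.89, MHC class I at -0.91 and oncofetal genes at 0.97, and without T-ALL the oxidase median was 0.94 and without AUL that of NK genes -0.75. Vpreb3 turned to 0.16 with the median of the others and ranged from -3.52 to 0.31 when 1 other leukaemia was left out, the highest without B-ALL. The oxidase median turned to -0.23 without genes at least 4-fold higher in normal myeloid cells than in every other normal population, an alternative chosen after seeing the data. Over all alternatives, 2333 of 2335 differences of 196 named genes kept their sign and 2299 stayed at least 1 in size. These genes were picked for large differences. Alternatives that change only the filter or the genes counted cannot alter a gene's own difference. The counts are therefore no measure of stability. Among genes with values above, Irf5, Ncf4, Pax5, Epx and Ezh2 fell under 1 in size without B-ALL, Afp and Rxra without AUL, and Pax5, Epx and Ezh2 with the median of the others. No paired analysis was possible because each group has 1 library. With 1 AML library, this leukaemia cannot be told apart from AML in general.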
